A study of Mus musculus with 141 samples.

Results

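Alveolar type I (AT1) cells of 1 mouse lung were split into 2 classes by a limit on *Igfbp2*, the gene of insulin-like growth factor binding protein 2. AT1 cells were taken as the cells with at least 5000 CPM of *Ager* and less than 0.15 of their reads on mitochondrially encoded (mt-) genes, and 45 cells met both limits, of 92 cells under the mt- limit and 49 over it in the whole series. Of these 45, 27 cells with at least 100 CPM of *Igfbp2* are called *Igfbp2*-high and 18 cells below that value *Igfbp2*-low. CPM is the number of reads of a gene for every 1000000 reads of the cell, or of all cells of a class summed. The members were thus chosen by their measured *Ager*, mt- and *Igfbp2* values, and those values are given as a description that supports nothing.

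All cells came from a 4-month-old male *ACID;R26tdTomato* mouse, labelled as strain 129SV and described in the study's methods as of 129S6/SvEvTac background. In these double-heterozygous mice a *Cre-IRES-DsRed* cassette sits in exon 1 of *Aqp5*, and Cre made from that locus removes a stop sequence before *tdTomato* at *ROSA26*. Any cell that has once used the *Aqp5* promoter keeps the reporter, so the sort also takes cells other than AT1 cells. Sorting kept CD31- CD45- E-cadherin+ tdTomato+ cells, which were loaded on a Fluidigm C1 chip, where each cell was lysed and its cDNA amplified at its own site, given by chip column and row. Both classes share genotype, sort, chip and mouse, and the labels name no treatment. The mouse is the sample, so n is 1, its cells were not used as replicates, and the comparisons below carry neither a test nor a standard error. Exact Poisson 95% intervals follow a CPM and Clopper-Pearson 95% intervals a share of cells. Reads copied by PCR are not independent molecules, so these intervals cover counting error alone.

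AT1 cells are the large flat cells across which gas passes between alveolar air and capillary blood. They make the receptor for advanced glycation end products (*Ager*), water and ion channels, caveolae, basement membrane and signals to the capillaries. *Igfbp2* encodes a secreted protein that binds insulin-like growth factors in the space around the cell. It is known as a marker of AT1 cells that have reached their final state, whereas AT1 cells without it are known from the young lung.

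Both classes had the AT1 markers *Ager* and *Hopx*, a homeodomain-only protein used to mark AT1 cells, in every cell. *Ager* ranged from 9335 to 41469 CPM with a median of 21393 in *Igfbp2*-high cells, and from 14222 to 33726 CPM with a median of 21709 in *Igfbp2*-low cells. The 47 other cells under the mt- limit had at most 1402 CPM of *Ager*, so none of the 92 cells under the mt- limit lay close to 5000 CPM. Reads per cell ranged from 182112 to 1022879 (median 497996) in *Igfbp2*-high and from 157105 to 838264 (median 379682) in *Igfbp2*-low cells, a ratio of medians of 1.31. The median number of detected genes was 2927 against 2492, and 1973 against 1819 when each cell was thinned to 90000 reads. The mt- share had medians of 10.1% and 10.6%. Of the 26 cells from chip columns 1 to 10, 13 were *Igfbp2*-high (95% interval 29.9 to 70.1%), and of the 19 from columns 11 to 20, 14 (73.7%, 48.8 to 90.9). The part of depth and chip column in the differences below was not tested. Log2 ratios within these 2 parts of the chip are given for some of the genes and lists below.

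*Igfbp2* lies on chromosome 1 (72824503-72852474, GRCm38). It was detected in all 27 *Igfbp2*-high cells, at 114.1 CPM in the lowest, 602 CPM in the median and 1565 CPM in the highest cell. In the *Igfbp2*-low cells the median was 1.34 CPM and the highest value 45.2 CPM. The classes were separated by a gap, since no AT1 cell lay between 45.2 and 114.1 CPM. Of the 18 *Igfbp2*-low cells, 9 had no *Igfbp2* read, 5 had 2.68 to 7.33 CPM, and 4 had 39.9 to 45.2 CPM, which is 8 to 36 reads. Another gap thus lay within the *Igfbp2*-low class, between 7.33 and 39.9 CPM. By counting error alone, a count of 0 allowed up to 19.1 CPM (3 reads) in the shallowest of the cells without a read. That is below the limit of 100 CPM, but read depth cannot show transcripts lost before amplification. The summed level was 528 CPM (516 to 540) in *Igfbp2*-high and 12.6 CPM (10.3 to 15.2) in *Igfbp2*-low cells. In the 47 other cells under the mt- limit it was 0.537 CPM (0.318 to 0.849), with reads in 10 cells, which gives the background of cells that are not AT1. The 9 *Igfbp2*-low cells with reads therefore included levels both near and above that background.

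**Figure D1:**
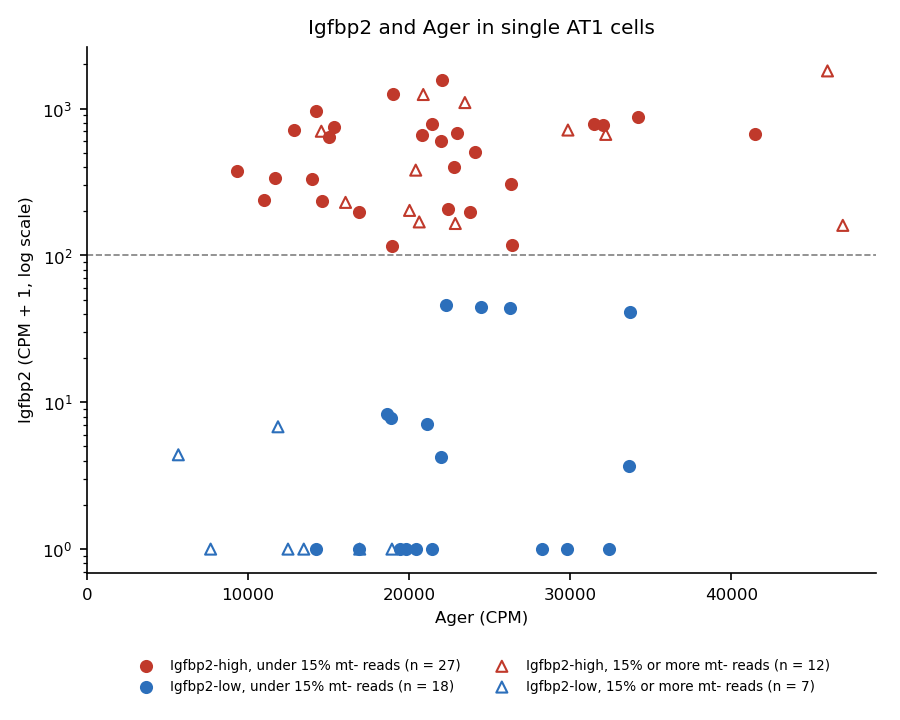
Each symbol is 1 AT1 cell, with *Ager* in CPM on the horizontal axis and *Igfbp2* as CPM plus 1 on a logarithmic vertical axis; the dashed line marks the limit of 100 CPM. Filled circles are the 45 cells, open triangles the 19 AT1 cells over the mt- limit, and in both sets a gap lies below the line, while *Ager* of the circles covers a like range in the 2 classes.

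The same split was made in 19 further cells that had at least 5000 CPM of *Ager* but were left out for an mt- share of 0.15 or more. They are separate cells of the same mouse and chip, with median mt- shares of 18.3% and 21.4%, so they are cells of lower quality by the usual filter. Of these, 12 were *Igfbp2*-high, from 159 to 1806 CPM, and 7 were *Igfbp2*-low, from 0 to 5.81 CPM. No cell of this set lay between 5.81 and 159 CPM. The lowest *Ager* value among them was 5678 CPM. Their values are given below as those of the separate cells, or cells over the mt- limit. They took no part in choosing the leading genes, but they did in 2 places that are named below, the genes 2-fold different everywhere and the windows shown for 3 inducible genes.

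The sequence around the start of *Igfbp2* is shown because this gene defines the classes. The window (RefSeq, GRCm38.p6, chr1:72824230-72824529, plus strand, 250 bases before to 50 after the first of 2 annotated starts) is shown 5′ to 3′. Capitals mark matches to 5 motifs searched on both strands: the GC box GGGCGG, the CRE core TGACG, the *Jun* site TGACNTCA, the AP-1 site TGANTCA and the TEAD site CATTCC. Overlapping matches are counted separately. Of 32851 such windows of all genes, 35.7% hold a GC box, 20.8% a CRE core, 8.8% a *Jun* site, 7.8% an AP-1 site and 14.7% a TEAD site. The *Igfbp2* window holds 3 GC boxes and no match to the other motifs.
Igfbp2: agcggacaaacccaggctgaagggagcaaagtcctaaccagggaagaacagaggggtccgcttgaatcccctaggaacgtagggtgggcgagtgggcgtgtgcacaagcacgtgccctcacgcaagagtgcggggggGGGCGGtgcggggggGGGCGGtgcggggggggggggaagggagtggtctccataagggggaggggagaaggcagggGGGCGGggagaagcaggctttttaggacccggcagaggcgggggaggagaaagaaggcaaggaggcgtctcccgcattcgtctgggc

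Pooled over the chip, the conventional AT1 markers differed by less than 2-fold between the classes. Of 10 conventional AT1 markers, 9 besides *Ager* passed the filter on low values (a read in at least 9 of the 45 cells and at least 10 CPM), and none of the 9 differed by 2-fold or more. Over all 4508 genes compared, 26.7% were at least 2-fold higher and 20.5% at least 2-fold lower in *Igfbp2*-high cells. The shares depended on detection, at 5.81% and 4.26% of the 258 genes with reads in at least 40 of the 45 cells. Widely detected genes thus mostly differed by less than 2-fold as well. Of 25 other AT1 genes, 2 were at least 2-fold higher, the secreted proteins *Fstl3* and *Ndnf*, and none lower. The median log2 ratio over the 34 AT1 genes was 0.13, beside 0.07 over all genes. A log2 ratio here is that of summed CPM, *Igfbp2*-high over *Igfbp2*-low, with 1 CPM added to both. For the median gene it was -0.01 in chip columns 1 to 10, 1.13 in columns 11 to 20 and 0.55 in the cells over the mt- limit.

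*Hopx* ranged from 1276 to 9833 CPM with a median of 4674 in *Igfbp2*-high cells, and from 1408 to 11574 CPM with a median of 6182 in *Igfbp2*-low cells. The ranges overlapped almost fully, and the log2 ratio was -0.31. *Gprc5a*, a receptor on the AT1 cell surface, had medians of 1548 and 1841 CPM and a log2 ratio of -0.08. The caveolin gene *Cav1* had medians of 2241 and 755 CPM but summed levels of 2175 and 1883 CPM, a log2 ratio of 0.21, since a few *Igfbp2*-low cells were very high, up to 9654 CPM. *Cav1* ranged down to 232 CPM in *Igfbp2*-high and to 3.26 CPM in *Igfbp2*-low cells. *Cav2*, its partner, went the other way with medians of 185 and 704 CPM and a log2 ratio of -0.59. *Pdpn*, the membrane glycoprotein podoplanin, had a log2 ratio of -0.76 with medians of 691 and 572 CPM, so its summed level and its median cell pointed in opposite directions. *Rtkn2* was at -0.44, the sodium channel subunit *Scnn1g* at 0.18, *Gramd2* at 0.02 and the water channel *Aqp5* at 0.41 on the log2 scale. Some of these small ratios joined opposite values in the 2 parts of the chip. *Aqp5* was at 1.36 for columns 1 to 10 and at -1.07 for 11 to 20, *Gramd2* at 0.96 and -1.39, and *Gprc5a* at 0.48 and -0.89. *Hopx* (-0.15 and -0.54), *Pdpn* (-1.06 and -0.66) and *Cav2* (-0.82 and -0.53) kept their side, whereas *Cav1* (0.48 and -0.32) and *Scnn1g* (0.37 and -0.39) did not. The median of the conventional markers was 0.37 and -0.66 in those parts. *Aqp5*, whose promoter drives the Cre of these mice, was detected in 26 of 27 and 18 of 18 cells, with medians of 465 and 429 CPM. Its reporter *tdTomato* had medians of 100.7 CPM (0 to 775) and 36.5 CPM (0 to 245).

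In the cells over the mt- limit these markers leaned to the *Igfbp2*-high side. All 9 conventional markers had a ratio above 0 there, with a median log2 ratio of 1.17 beside 0.55 over all genes compared. *Ager* itself was at 14552 to 46915 CPM (median 21872) in the 12 *Igfbp2*-high and at 5678 to 18935 CPM (median 12484) in the 7 *Igfbp2*-low cells, so the ranges overlapped between 14552 and 18935 CPM. *Hopx* had medians of 4798 and 2978 CPM and *Aqp5* of 263 and 10.8 CPM in that set. The difference between the 2 sets of cells was not tested.

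*Cldn18*, the tight junction protein claudin-18 of lung and stomach, separated the classes of the 45 cells most clearly of the genes compared. In *Igfbp2*-high cells it ranged from 55.8 to 6920 CPM with a median of 1855, and in *Igfbp2*-low cells from 1203 to 8049 CPM with a median of 3613. Every cell of both classes had reads, and the ranges overlapped above 1203 CPM. The summed level was 1966 against 3799 CPM, a log2 ratio of -0.95 (-0.97 to -0.93). In 19.9% of all pairs of a high and a low cell, the *Igfbp2*-high cell had the higher count at equal depth, the lowest share of the 4508 genes, whose middle 90% lay between 40.4 and 63.2%. *Cldn18* was chosen for this after its values were seen. The log2 ratio was -0.99 for chip columns 1 to 10 and -1.12 for 11 to 20, but 1.25 in the cells over the mt- limit, where the medians were 1529 and 687 CPM. The lower level in *Igfbp2*-high cells was thus found in both parts of the chip and turned round in the separate cells.

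The window at the first of 2 *Cldn18* starts (chr9:99717218-99717517, minus strand) is shown because this gene came first in the comparison. It holds 2 CRE cores, 1 on each strand, in capitals, and no GC box. The gene spans chromosome 9, 99689461-99717267, and the counts per gene do not tell its starts apart.
Cldn18: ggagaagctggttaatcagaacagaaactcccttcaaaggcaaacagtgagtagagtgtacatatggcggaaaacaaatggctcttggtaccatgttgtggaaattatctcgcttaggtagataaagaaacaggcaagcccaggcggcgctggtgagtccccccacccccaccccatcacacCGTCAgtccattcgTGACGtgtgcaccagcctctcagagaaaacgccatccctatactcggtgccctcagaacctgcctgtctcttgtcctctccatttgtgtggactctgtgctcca

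Other genes that nearly every cell expressed mostly differed by less than 2-fold. Of 258 genes with reads in at least 40 of the 45 cells, 5.81% were at least 2-fold higher and 4.26% at least 2-fold lower. The shares were larger where detection was lower, at 16.5% and 15.3% of 1508 genes seen in 20 to 39 cells and at 34.3% and 24.9% of 2742 genes seen in 9 to 19 cells. The genes below are 5 of the widely detected genes with the lowest and highest pair shares, taken after their values were seen. *Clic3*, a chloride intracellular channel protein of AT1 cells, was lower, with medians of 2373 and 3997 CPM and a pair share of 27.1%. The heat shock family protein *Cryab* was lower at medians of 744 and 2063 CPM. *Cadm1*, a cell adhesion molecule, was higher, with medians of 2645 and 1185 CPM and a log2 ratio of 0.81. The calcium-binding protein *S100a6* had medians of 3014 and 1741 CPM. *Limch1*, an actomyosin regulator, had medians of 1064 and 389 CPM and the highest pair share of these genes, 72.4%. The ranges of all 5 overlapped between the classes.

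The 8 highest and 8 lowest widely detected genes by pair share were followed into the cells over the mt- limit. Of the 8 higher genes, 5 were on the same side there, and of the 8 lower genes, 1. Of all genes compared, 58.4% had a ratio above 0 there and 39.6% a ratio below 0. The log2 ratio there was 1.14 for *Cadm1* and 0.72 for *Limch1*, beside 0.55 for the median gene, and *S100a6* was at 1414 and 500.2 CPM. It was below 0 for the higher genes *Jund* (-0.79), *Ppp3ca* (-1.27) and *Selenbp1* (-0.36). Of the lower genes, *Clic3* was at 0.61, *Cryab* at 2.19 and the splicing factor *Rbm25*, which kept its side, at -0.71. *S100a6* was at 1.21 for chip columns 1 to 10 and at -0.22 for 11 to 20, so its higher level was not found in both parts. *Cadm1* was at 1.02 and 0.56 in the 2 parts, *Limch1* at 0.33 and 1.75, *Clic3* at -0.99 and -0.27 and *Cryab* at -0.63 and -0.13. The median gene was at -0.01 and 1.13 in these parts, so *Cadm1* lay below it in columns 11 to 20.

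**Figure D2:**
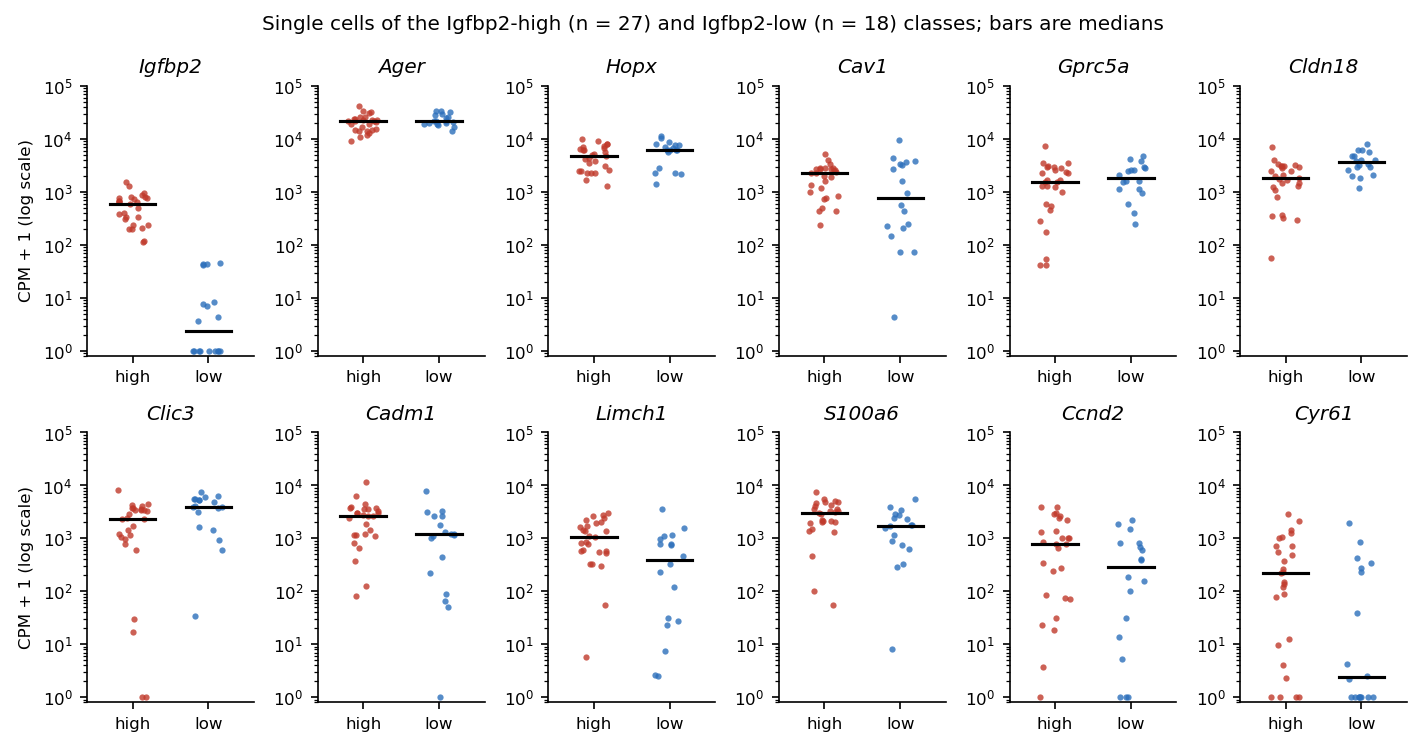
Each point is 1 cell, with CPM plus 1 on a logarithmic axis, for the 27 *Igfbp2*-high and 18 *Igfbp2*-low cells; black bars are medians and points are spread sideways at random. *Igfbp2*, which set the classes, leaves a gap, whereas all other genes overlap, with *Cldn18* and *Clic3* lower and *Cadm1*, *Limch1*, *S100a6*, *Ccnd2* and *Cyr61* higher by their medians in *Igfbp2*-high cells.

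None of the genes compared, which leave out *Igfbp2* and *Ager*, separated the classes in every pair of cells. On summed CPM, 1204 genes were at least 2-fold higher and 924 at least 2-fold lower in *Igfbp2*-high cells. A gene's top cell held 30.1% of its reads in the median, and 15.4% of genes had 50% or more of their reads in 1 cell. The difference was therefore also computed at 90000 reads per cell and without the top cell of the gene. By all 3 measures, 686 genes were at least 2-fold higher (15.2%) and 368 at least 2-fold lower (8.16%). The highest pair share was 77.5%, 20 genes reached 70% and 4 were at 30% or below. These values chose the leading genes and are given as a description.

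The genes with the highest pair shares among those 686 were *Gnas*, *Trim8*, *Gm13498*, *Gm37108*, *S1pr2*, *Rusc2*, *Ostf1*, *Gm14414*, *Gm6368*, *Surf4*, *Minos1* and *Ppp2ca*. *Gnas*, the stimulatory G protein alpha subunit, was detected in 23 of 27 and 13 of 18 cells, with medians of 243 and 9.43 CPM and a highest cell of 2426 and 2427 CPM. Its log2 ratio was 2.83 for chip columns 1 to 10 and -0.74 for 11 to 20. *S1pr2*, a receptor for sphingosine-1-phosphate, was detected in 18 of 27 and 8 of 18 cells, at 378 and 63.2 CPM. *Trim8*, a ubiquitin ligase, was at 182 and 11.7 CPM, and *Ppp2ca*, a phosphatase catalytic subunit, at 332 and 45.1 CPM. *Minos1*, of the mitochondrial inner membrane organizing complex, had medians of 584 and 3.23 CPM. In the 2 parts of the chip *Trim8* was at 4.98 and 2.45, *S1pr2* at 2.89 and 6.18, *Ppp2ca* at 5.92 and 0.62 and *Minos1* at 0.89 and 1.90 on the log2 scale. In the separate cells *Gnas* (2.19), *Ppp2ca* (4.58) and *Minos1* (7.69) were on the same side, and *Trim8* (-0.49) and *S1pr2* (-1.95) on the other. The 4 predicted *Gm* genes may share reads with near-identical copies and are uncertain.

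The 12 with the lowest pair shares among the 368 were *Cd81*, *Rps15a*, *Col12a1*, *Paip2*, *Atp11b*, *Gabarapl1*, *Hdgf*, *Jak2*, *Srrm2*, *Msi2*, *Ndel1* and *Bdnf*. *Cd81*, a tetraspanin, had medians of 11.9 and 885 CPM, and 22 of 27 and 15 of 18 cells had reads. *Srrm2*, a splicing scaffold, had medians of 55.7 and 638 CPM. *Bdnf*, a neurotrophin, had medians of 0 and 174 CPM, reads in 13 of 27 and 12 of 18 cells, and a log2 ratio of -2.62, with -2.56 and -2.17 in the 2 parts of the chip. *Cd81* was at -0.66 and -1.88 in those parts and *Srrm2* at -0.60 and -2.10. In the separate cells *Srrm2* (-4.13) and *Bdnf* (-1.25) were on the same side and *Cd81* (1.65) on the other. *Rps15a* is a ribosomal protein gene with processed copies and is uncertain.

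These genes were set beside the 19 separate cells. Of the 12 leading higher genes, 6 were on the same side there, and of the 12 leading lower genes, 5. Of the 686 genes, 54.2% had a ratio above 0 in the separate cells, while 58.4% of all genes compared did. Of the 368 genes, 44.02% had a ratio below 0, beside 39.6% of all genes. Over the 4508 genes the pair shares in the 2 sets of cells had a Pearson correlation of -0.007 and a Spearman correlation of -0.002, as a description, since genes are not independent. Over the 258 widely detected genes the values were -0.093 and -0.089. The 2 sets share no cell, but they share the mouse and the chip and differ in quality and in *Ager*. The genes higher by all 3 measures were thus on the same side in the separate cells a little less often than all genes, and the lower genes a little more often.

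**Figure D3:**
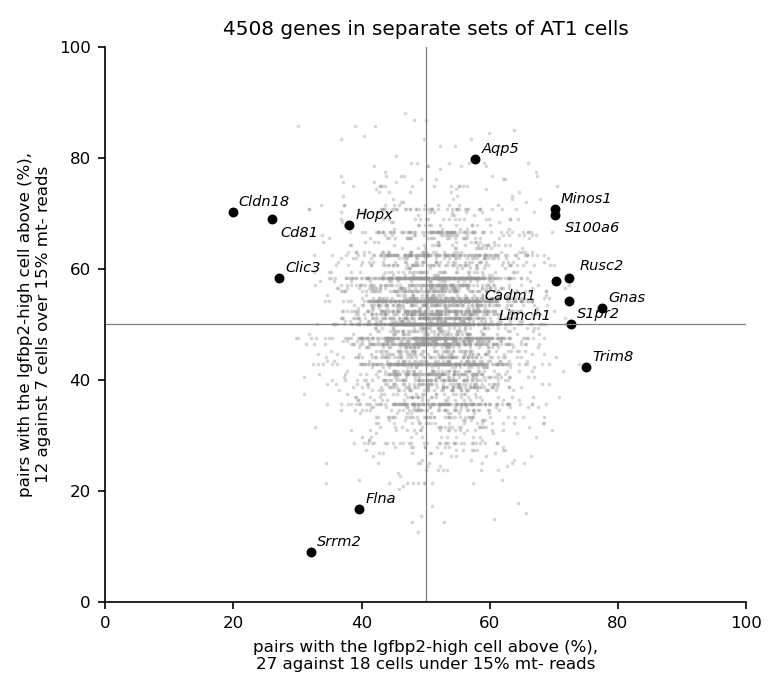
Each grey point is 1 of 4508 genes, placed by the percentage of high-low pairs of cells in which the *Igfbp2*-high cell had the higher count at 90000 reads, in the 45 cells (horizontal) and in the 19 cells over the mt- limit (vertical). The cloud has no slope, with a correlation of -0.007; *Cldn18* and *Cd81* lie on opposite sides in the 2 sets, and *Srrm2* and *Flna* lie low in both.

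A smaller number of genes was at least 2-fold different by all 3 measures, in both parts of the chip and in the separate cells. There were 221 on the higher side (4.90% of all genes compared and 32.2% of the 686) and 56 on the lower side (1.24% and 15.2% of the 368). This step was added after the data had been seen, and the median gene itself was at 1.13 in columns 11 to 20 and at 0.55 in the separate cells on the log2 scale, so the higher side was favoured. The parts of the chip are the same 45 cells that chose the genes, and 503 of the 686 and 180 of the 368 were 2-fold in both. The share of all genes that were 2-fold in the separate cells was not computed, so the 2 counts have no background and support nothing. *Rusc2* was at 210 and 45.7 CPM, *Trim44* at 307 and 45.7 CPM, and *Mtcl1*, a microtubule crosslinking factor, at 770 and 187 CPM. *Flna*, the actin crosslinker filamin A, was lower, at 43.6 and 203 CPM, with a log2 ratio of -2.20 in the 45 and -8.83 in the separate cells. *Paip2*, an inhibitor of poly(A)-binding protein, was lower at 172 and 584 CPM. *Flna* had reads in 8 of 27 and 8 of 18 cells, so its level rested on a small share of the cells.

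Immediate early and stress genes, which cells switch on within minutes of a stimulus or of dissociation, leaned to the *Igfbp2*-high cells of the 45. Of 24 listed, 20 passed the filter, 8 were at least 2-fold higher and none lower, and 6 were higher by all 3 measures. The background shares are the 26.7% and 15.2% above. Their median log2 ratio was 0.81, and 15 of 20 were above 0. *Jun*, a subunit of AP-1, ranged from 0 to 1474 CPM (median 10.98) and from 0 to 419 CPM (median 1.36), with reads in 20 of 27 and 10 of 18 cells. Its summed level was 152 against 22.4 CPM. *Junb*, its relative, was at 187 against 45.1 CPM and *Hspa1b*, an inducible heat shock protein, at a log2 ratio of 3.45. *Atf3*, a stress-induced transcription factor, was at 96.02 against 0.935 CPM, with reads in 13 of 27 and 6 of 18 cells and a highest cell of 2740 and 5.03 CPM. *Klf2* and *Nr4a1*, transcription factors of the same response, were the other members higher by all 3 measures. Most cells of both classes were low in each of these genes and a few were high.

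The summed level of the 24 genes ranged from 1339 to 12416 CPM (median 5175) in *Igfbp2*-high and from 1079 to 11726 CPM (median 3727) in *Igfbp2*-low cells. These ranges overlapped almost fully. In the cells over the mt- limit the median log2 ratio of the list was -0.29, and 9 of 20 members were above 0. Over all genes compared the median there was 0.55, and 58.4% were above 0. *Jun* (1.51), *Junb* (1.67) and *Atf3* (3.33) were higher there too, and *Klf2* (-5.19) and *Hspa1b* (-2.03) were lower. The median of the list was thus above 0 in the 45 cells and below 0 in the separate cells.

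Windows at the starts of *Jun*, *Atf3* and *Cyr61* are shown because these inducible genes had a log2 ratio above 0 in both sets of cells. In the separate cells the ratio of *Cyr61* lay close to that of the median gene (0.55). They are from the minus strand at chr4:95052173-95052472 for *Jun*, chr1:191183284-191183583 for *Atf3* and chr3:145649936-145650235 for *Cyr61*, which RefSeq names *Ccn1*. *Jun* holds 1 *Jun* site and 1 GC box, *Atf3* 5 GC boxes, of which 2 overlap, and 1 CRE core, and *Cyr61* 2 GC boxes, 1 CRE core and 1 TEAD site. A match is a match of letters and says nothing of binding.
Jun: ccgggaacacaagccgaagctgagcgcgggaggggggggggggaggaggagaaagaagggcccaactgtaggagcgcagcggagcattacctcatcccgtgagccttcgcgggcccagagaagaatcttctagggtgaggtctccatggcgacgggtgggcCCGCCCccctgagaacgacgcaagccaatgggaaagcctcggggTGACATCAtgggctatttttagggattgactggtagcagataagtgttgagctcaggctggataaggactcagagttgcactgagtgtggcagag
Atf3: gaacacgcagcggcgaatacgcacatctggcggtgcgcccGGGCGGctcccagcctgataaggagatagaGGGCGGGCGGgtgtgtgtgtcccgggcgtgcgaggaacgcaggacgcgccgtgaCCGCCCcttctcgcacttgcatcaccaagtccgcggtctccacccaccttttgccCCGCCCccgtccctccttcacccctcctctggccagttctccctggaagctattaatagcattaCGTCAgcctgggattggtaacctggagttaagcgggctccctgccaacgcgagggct
Cyr61: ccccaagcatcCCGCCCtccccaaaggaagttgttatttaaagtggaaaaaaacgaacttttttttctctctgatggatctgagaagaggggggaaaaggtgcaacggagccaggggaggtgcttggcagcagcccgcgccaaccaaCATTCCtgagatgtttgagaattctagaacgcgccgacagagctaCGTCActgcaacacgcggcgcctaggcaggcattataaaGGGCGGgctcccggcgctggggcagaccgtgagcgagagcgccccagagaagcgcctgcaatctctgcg

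Targets of YAP and TEAD, which respond to stretch and cell shape, were listed together with *Yap1*, *Wwtr1* and *Tead1*, which are not targets but the factors themselves. Of the 15 members of this list that were compared, 6 were at least 2-fold higher and 1 lower, with 3 and 1 by all 3 measures. The shares of all genes were 26.7% and 20.5%, and 15.2% and 8.16% by all 3 measures. The median log2 ratio of the list was 0.21. *Cyr61*, a matricellular protein, ranged from 0 to 2877 CPM (median 219) in *Igfbp2*-high and from 0 to 1982 CPM (median 1.36) in *Igfbp2*-low cells, with reads in 23 of 27 and 10 of 18 cells. Its log2 ratio was 1.18 and 1.78 in the 2 parts of the chip and 0.62 in the separate cells. The median gene was at -0.01 and 1.13 in those parts and at 0.55 in the separate cells. *Ankrd1* was at 155 and 26.0 CPM, and *Wwtr1*, which encodes the YAP relative TAZ, at 395 and 65.2 CPM. *Ptpn14*, which restrains YAP, was lower at 34.2 and 184 CPM.

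In the insulin-like growth factor system, to which *Igfbp2* belongs, neither of the 2 other binding proteins that passed the filter differed by 2-fold in the 45 cells. *Igfbp7* ranged up to 5411 CPM with a median of 2050 in *Igfbp2*-high, and up to 4453 CPM with a median of 1146 in *Igfbp2*-low cells. Its log2 ratio was 0.21. *Igfbp6* had medians of 563 and 938 CPM and a log2 ratio of -0.11. In the separate cells both were higher on the *Igfbp2*-high side, at 2.89 and 1.10. Of the 12 members that passed the filter, 4 were at least 2-fold higher and 1 lower, beside 26.7% and 20.5% of all genes. *Igf2bp2*, an RNA-binding protein, *Pik3ca*, the catalytic subunit of phosphoinositide 3-kinase, and *Akt2*, a kinase below it, were higher by all 3 measures. Of all genes, 15.2% were higher by all 3 measures. *Pik3ca* was detected in 10 of 27 and 7 of 18 cells, and the medians of both classes were 0 CPM. The growth factor receptor *Igf2r* was at 106.7 and 50.2 CPM. *Htra1*, a protease that cuts binding proteins, was at 210 and 292 CPM.

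Basement membrane genes, the matrix that AT1 and capillary cells share, had 14 of 17 members above 0 and a median log2 ratio of 0.41. At equal depth the median was -0.02, so the lean was not seen there. Of the 17, 1 was at least 2-fold higher and none lower, beside 26.7% and 20.5% of all genes. *Sparc*, a matricellular protein, had medians of 4605 and 4008 CPM, *Col4a4* of 1861 and 1422 CPM and *Col4a3* of 791 and 395 CPM, the last 2 being type IV collagen chains. *Col4a1* had medians of 554 and 28.3 CPM and a pair share of 68.5%. The median of the list was 0.84 in chip columns 1 to 10, -0.48 in columns 11 to 20 and 0.03 in the separate cells, so its sign depended on the cells used. For the median gene the values were -0.01, 1.13 and 0.55.

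Ion and water transport genes had a median log2 ratio of 0.15. Of 11 compared, 1 was higher and 1 lower by 2-fold, beside 26.7% and 20.5% of all genes. The sodium channel subunits *Scnn1a* (795 and 715 CPM) and *Scnn1b* (558 and 468 CPM) lay near each other. The sodium pump subunit *Atp1b1* was higher, at 185 and 26.6 CPM, while its median cell was at 2.30 and 3.32 CPM. The pump subunit *Atp1b3* was lower, at 0.824 and 54.9 CPM, with reads in 6 of 27 and 3 of 18 cells. Of 9 caveola genes, *Ptrf*, the coat protein cavin-1, was higher by all 3 measures, with medians of 621 and 213 CPM, as was *Ehd4*, whereas *Ehd1* was lower. By all 3 measures 15.2% of all genes were higher and 8.16% lower. *Ptrf* had a log2 ratio of -0.99 in the separate cells. Junction and actin genes had a median log2 ratio of 0.12, and *Cdh1*, the E-cadherin used in the sort, was at 862 and 506 CPM.

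Genes of housekeeping pathways had pooled medians a little below 0, with values on both sides in smaller sets of cells. Of 23 nuclear genes of oxidative phosphorylation, 3 were at least 2-fold higher and 7 lower, beside 26.7% and 20.5% of all genes, and the median log2 ratio was -0.36. *Cox5a* of complex IV, the ATP synthase subunit *Atp5a1* and cytochrome c (*Cycs*) were among those lower by all 3 measures. *Atp5a1* was at 163 and 843 CPM. Of 23 cytosolic ribosomal protein genes, 18 were below 0 and 5 at least 2-fold lower, with a median of -0.37, and *Rps20* and *Rpl18* were lower by all 3 measures. Of all genes, 20.5% were at least 2-fold lower and 8.16% lower by all 3 measures, so the ribosomal counts lay near these shares. Without each gene's top cell the medians of these lists were -0.12 and -0.20, in chip columns 11 to 20 they were 0.27 and 0.30, and in the separate cells 2.43 and 0.62. The median gene was itself at 1.13 in columns 11 to 20 and at 0.55 in the separate cells, so both lists stayed below it in columns 11 to 20. Glycolysis genes had a median of -0.38, but 0.13 at equal depth and 0.43 without the top cell. Among them *Ldha*, which makes lactate, was at 330 and 78.4 CPM, *Gpi1* at 40.2 and 1.28 CPM and *Aldoa* at 251 and 670 CPM.

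Among cell cycle genes *Ccnd2*, cyclin D2, ranged from 0 to 3986 CPM (median 793) in *Igfbp2*-high and from 0 to 2228 CPM (median 286) in *Igfbp2*-low cells. The log2 ratio was 1.37, with 0.75 and 1.48 in the 2 parts of the chip. In the separate cells the summed levels were 1043 and 259 CPM, while the medians went the other way, at 87.3 and 264 CPM. Of the 12 cell cycle genes measured, 2 passed the filter, and the other was the inhibitor *Cdkn1b* (log2 ratio -0.31). Among signals from AT1 cells *Vegfa*, the growth factor for capillaries, was at 3630 and 3865 CPM and the platelet-derived growth factor *Pdgfa* at 853 and 913 CPM. Of 14 such signals compared, *Wnt3a* and *Efnb1* were higher by all 3 measures and *Bdnf* lower, beside 15.2% and 8.16% of all genes. Of 13 TGF-beta pathway genes, *Smad4*, *Bmpr2* and *Id2* were higher by all 3 measures, beside 15.2% of all genes, while 8 were below 0, 2 at least 2-fold lower, and the median was -0.35. *Bmpr2*, a receptor for bone morphogenetic proteins, was at 258 and 48.4 CPM. Among lineage factors *Nkx2-1*, required for lung epithelium, was at 248 and 145 CPM, and *Grhl2* was lower by all 3 measures, at 0.206 and 58.3 CPM. Of 5 MHC and interferon genes, *Cd74* was higher by all 3 measures, at 22.9 and 1.64 CPM.

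Summed levels of the markers of other cell types overlapped between the classes, but the pooled median of the AT2 genes was above 0. Of 8 AT2 markers that passed the filter, 6 were above 0, 4 at least 2-fold higher and none lower. The shares of all genes were 26.7% higher and 20.5% lower. The median log2 ratio of the AT2 markers was 1.03, and 1.10 at equal depth. The median was 0.32 without each gene's top cell, -0.23 in chip columns 11 to 20 and -0.40 in the separate cells. The summed level of the 15 AT2 markers ranged from 27.9 to 8728 CPM (median 752) in *Igfbp2*-high and from 49.05 to 2150 CPM (median 710) in *Igfbp2*-low cells. *Sftpc*, surfactant protein C, had reads in every cell, with medians of 97.6 and 93.3 CPM, and its summed level was 332 and 118.2 CPM. *Scd1* was the other AT2 gene higher by all 3 measures. Of all genes, 15.2% were higher and 8.16% lower by all 3 measures. Of 9 transitional alveolar genes *Mdm2* and *Hbegf* were higher by all 3 measures, and the list's summed level had medians of 3194 and 2701 CPM. The 10 club cell markers summed to medians of 880 and 294 CPM, and *Scgb3a1* and *Bpifa1* were lower by all 3 measures. The ciliated markers summed to medians of 1565 and 1125 CPM, nearly all from *Tppp3*, which was at 1451 and 1302 CPM. No basal, fibroblast or endothelial marker passed the filter, with median summed levels of 0 CPM in both classes. Of 12 macrophage and leukocyte markers 2 were analysed, with medians of 1.36 and 1.43 CPM. The part of RNA from other cells in the differences above was not tested.

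**Figure D4:**
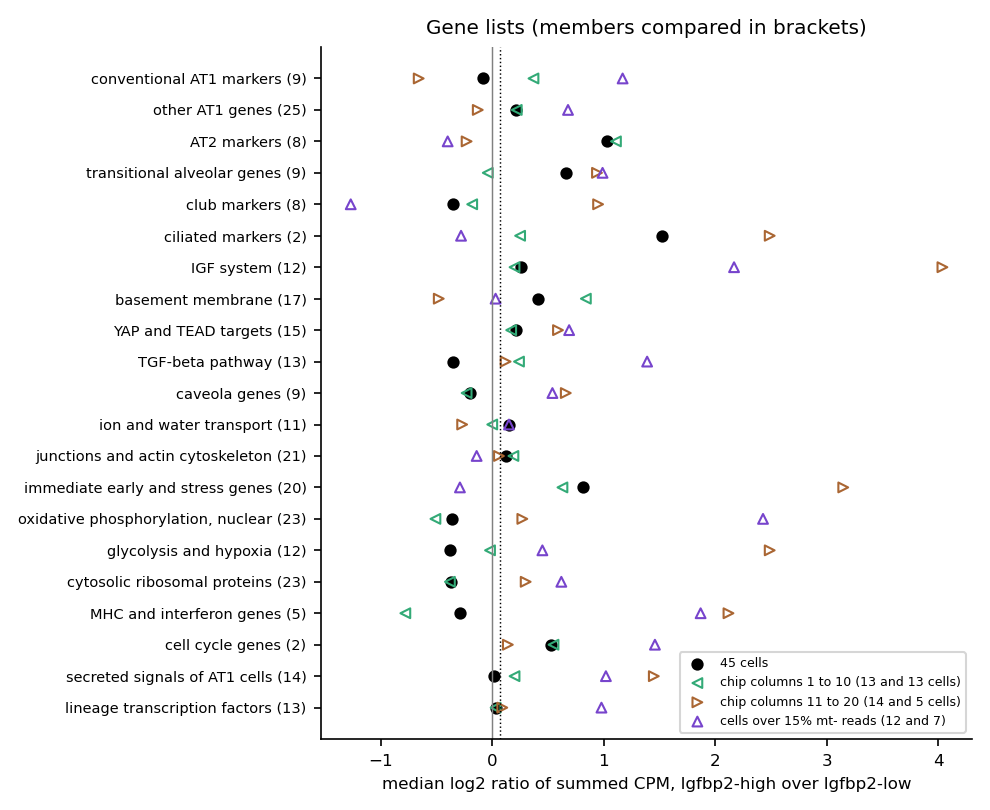
Each row is a gene list with the number of its members compared, and each symbol the median log2 ratio of summed CPM, *Igfbp2*-high over *Igfbp2*-low, in the 45 cells, in each part of the chip and in the cells over the mt- limit. The solid line is 0 and the dotted line the median of all genes in the 45 cells (0.07). That median was 1.13 in chip columns 11 to 20 and 0.55 in the separate cells, which no line marks. For the immediate early, oxidative phosphorylation and conventional AT1 lists, among others, the separate cells lie on the other side of 0 from the 45 cells.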

How the data were processed

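Read counts were measured in 92 sorted cells under and 49 over the mt- limit, all of 1 mouse, captured on a Fluidigm C1 chip. The authors used Trim Galore and FastQC for trimming and quality control, HISAT2 for mapping to GRCm38 and featureCounts for counting, and the deposited values are raw counts of 17136 genes; versions are not given in the sources used here. No molecular identifiers are stated, so counts are reads after PCR. The study scored doublets by microscope after capture and kept only single cells for its analysis. No software call of doublets was added. The strand setting of the counting is not given, so overlapping genes cannot be told apart.

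Cells were taken by *Ager*, mt- share (37 mt- genes) and *Igfbp2*. The members, the gene lists and the limits were chosen with earlier results of these data known. Counts were summed over each class and given as CPM. Genes with a read in at least 9 of the 45 cells and at least 10 CPM were compared, without *Igfbp2*, *Ager* and mt- genes. The 3 measures were set side by side with a 2-fold limit: all reads, 90000 reads drawn per cell without replacement, and all reads without the gene's top cell. The share of high-low pairs in which the *Igfbp2*-high cell had the higher count, ties shared equally, was computed on the drawn reads. Log2 ratios have 1 CPM added, which pulls those of low genes towards 0, and intervals of ratios do not.

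The genes named are up to 12 on each side by pair share among those 2-fold different by all 3 measures, the conventional AT1 markers, members of each list that pass all 3 or else those with the highest CPM, and the insulin-like growth factor genes; genes chosen after their values were seen are marked in the text. Positions are from GENCODE vM21 (94.0% of symbols matched) or RefSeq, and start site windows from RefSeq. The scripts were tested on simulated data. Tables were made with pandas 2.3.3 and numpy 2.4.6 in Python 3.11.15, intervals with scipy 1.17.1, plots with matplotlib 3.10.9, and size factors with scran 1.30.0 in R 4.3.3. Alternatives changed the limits on cells, the scaling, the filter, the depth, the added CPM and the cells used.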

Additional observations from a re-analysis of the deposited data

How the results depend on the processing

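The split was set by its limits in part. With 1 *Igfbp2* read against none there were 36 and 9 cells, with an mt- share under 0.10 there were 12 and 7, and with no mt- limit 39 *Igfbp2*-high cells. Splits at 50 or 200 CPM and *Ager* limits of 2000 or 10000 CPM moved neither number beyond its counting interval. The ratio of median reads, 1.31, fell below 1 with a split at 200 CPM (0.798), an mt- share under 0.10 (0.742) and in chip columns 1 to 10 (0.791).

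Counts of genes moved with the filter and with the cells used. As shares of the genes compared, the higher genes moved most in chip columns 11 to 20. Without a filter on low values 3913 genes (28.7% of those compared) were at least 2-fold higher and 2684 (19.7%) lower, and 1620 (11.9%) and 719 (5.27%) by all 3 measures. With reads in at least 18 cells and 50 CPM, 300 and 239 genes were past the limit (16.8% and 13.4%), and 8.97% and 5.78% by all 3 measures. With an mt- share under 0.10, and so fewer cells, the counts were 509 (26.6%) and 426 (22.2%), and 320 (16.7%) and 157 (8.19%). In chip columns 11 to 20, with 5 *Igfbp2*-low cells, 2326 genes (51.6%) were higher, 1637 (36.3%) by all 3 measures, and the median gene was at 1.13 on the log2 scale. In columns 1 to 10, 565 genes (12.5%) were lower by all 3 measures, and with 1 read against none 1300 (28.8%) were higher. The cause was not tested. Of the immediate early genes, 14 in place of 8 were at least 2-fold higher in columns 11 to 20.

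The median log2 ratio of the AT1 genes, 0.13 beside 0.07 over all genes, ranged from -0.33 to 0.27 under the alternatives. It was 0.27 with a split at 200 CPM, 0.01 with 1 read against none, 0.25 with an mt- share under 0.10, 0.09 with means over cells, 0.06 with scran size factors, 0.18 and 0.08 without the deepest *Igfbp2*-high or *Igfbp2*-low cell, and 0.23 in columns 1 to 10. It was below 0 in columns 11 to 20 (-0.33) and without the 4 *Igfbp2*-low cells at 39.9 to 45.2 CPM (-0.01), an alternative added after seeing the data. The median of all genes compared moved as well. It was 1.13 in columns 11 to 20, 0.30 with 1 read against none and 0.15 without those 4 cells.

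Of 799 log2 ratios of single genes under alternatives, 351 lay within the counting interval, and the others lay outside it. The interval leaves out the added 1 CPM, so the reported values of *Atf3* (5.65) and *Surf4* (6.80) themselves lay outside theirs. The split at 50 CPM and the *Ager* limit of 2000 CPM took the same 27 and 18 cells as the reported split. Ratios under these 2 settings repeat the reported ones, and 45 of 47 in each were counted as within. Among the 799 ratios the sign differed from the reported value in 21. Of these, 17 were ratios of genes that were not 2-fold different by all 3 measures, 5 of them in chip columns 11 to 20. The other 4 were of genes 2-fold different by all 3 measures. *Gnas* (-0.74) and *Atp11b* (0.08) turned in columns 11 to 20, *Surf4* (-2.28) with a split at 200 CPM, and *Col12a1* (0.21) with 1 read against none. A second draw of reads, also added later, kept 5 of the 12 leading higher and 7 of the 12 leading lower genes, while 675 of 686 and 361 of 368 genes stayed 2-fold by all 3 measures, so the order of the leading genes rests on the draw. No paired analysis was possible because all cells form 1 labelled group of 1 mouse, and no replicate number pairs a high with a low cell.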
